A study of Mus musculus with 20 samples.

Results

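Transcripts of 10 genes that mark resident liver macrophages (Kupffer cells) and macrophages in general were followed across MYC-driven mouse liver tumors and control livers. The genes were chosen by symbol: Clec4f, Timd4, Vsig4, Marco and Cd5l for Kupffer cells, Adgre1, Csf1r and Cd68 for macrophages of any origin, and Trem2 and Spp1 for macrophages described in tumors. All 10 were found among the 50559 genes of the deposited counts, and all 10 passed the filter on low counts that left 14333 genes for testing.

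Kupffer cells are the macrophages that sit in the sinusoids of the liver, where they clear particles, bacteria and aged red cells from the blood. They are seeded before birth, renew themselves in place, and depend on signals from sinusoidal endothelial cells, stellate cells and hepatocytes for their identity. When they are lost or displaced, monocytes from the blood can enter the liver and become macrophages, which share Adgre1, Csf1r and Cd68 with Kupffer cells but acquire Timd4 slowly. Macrophages in tumors and in fatty or injured liver often carry a further program with Trem2, Spp1 and lysosomal and lipid-handling genes.

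RNA was sequenced from 20 libraries, 5 each of livers and of the tumor types Aldafermin+MYC, FGF19+MYC and sgTrp53+MYC. The tumors arose in young adult female wild-type C57BL/6J mice after hydrodynamic gene transfer, an injection of plasmids into the tail vein that reaches mainly hepatocytes. All tumor groups received MYC, together with the human hormone FGF19, with Aldafermin (an engineered FGF19 analog), or with a CRISPR guide against Trp53 (sgTrp53). Each library came from a tumor or liver of a different mouse. The livers carry the label non treated, whereas the methods describe control mice given an RFP plasmid, and the treatment field of the sgTrp53+MYC samples reads none, their condition being in the titles. In whole-tissue RNA, fewer cells of a type and less RNA per cell cannot be told apart.

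Gene counts summed to between 18004977 and 66354724 reads in a library, with the highest totals (54042455 to 66354724) in the sgTrp53+MYC tumors, which were deposited in a table of their own, so that table and tumor type cannot be told apart. The share of ambiguous reads was 11.1% to 14.6% in the sgTrp53+MYC libraries and 3.03% to 6.30% in the other groups. Reads not aligned made up 5.34% to 6.82% in the former and 15.3% or more in the latter. What these differences add to the comparisons with sgTrp53+MYC tumors was not tested. Levels are given as CPM (read counts scaled to a common total) after TMM scaling. The tests are those of edgeR's quasi-likelihood model of the 4 groups, with Benjamini-Hochberg adjustment over all 14333 genes and a threshold of 0.05, and "called" means past it. Hepatocyte marker genes (Alb, Cps1 and 4 others) together reached 1.38% to 11.6% of their mean in livers in the 15 tumors, and sinusoidal endothelial markers (Stab2, Clec4g and 4 others) reached 12.4% to 48.9%. Scaling by library totals alone, without TMM, moved the median log2 fold change of all genes by 0.85 when Aldafermin+MYC and FGF19+MYC tumors were pooled against livers and by 0.88 for the sgTrp53+MYC tumors. The genes called were then 8763 higher and 2629 lower in place of 5616 and 4945 in the former comparison, and 8534 and 2423 in place of 5286 and 4733 in the latter. Changes are therefore relative to the TMM scale, and the members whose call or direction differed on the other scale are named below.

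Clec4f, Timd4 and Vsig4 were the members with the most uniform loss. All 3 were lower in each of the 15 tumors than in any of the 5 livers. Clec4f encodes a C-type lectin found in rodents almost only on Kupffer cells, Timd4 a phosphatidylserine receptor for dying cells that marks long-lived resident macrophages, and Vsig4 the complement receptor CRIg, which captures bacteria from the blood.

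The livers had 158, 136, 165, 189 and 184 CPM of Clec4f. In the FGF19+MYC tumors 6.03, 12.4, 26.1, 21.0 and 47.2 CPM were found, and in the sgTrp53+MYC tumors 13.2, 2.36, 12.2, 7.13 and 0.368. The Aldafermin+MYC tumors had 1.07, 0, 1.89, 36.3 and 1.07 CPM. The highest tumor stood well under the lowest liver, and 4 of the 5 Aldafermin+MYC tumors were below 2 CPM while replicate 4 was above all but 1 of the FGF19+MYC tumors. In replicate 2 no read fell on Clec4f, which allows up to 0.0744 CPM (3 counts, counting error only).

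Clec4f fell 12.4-fold in the Aldafermin+MYC and FGF19+MYC tumors pooled, as the mean of both groups, against livers (log2 fold change -3.63, standard error 0.86, adjusted p = 0.000863). Without Aldafermin+MYC replicate 4, the log2 fold change was -5.13. In sgTrp53+MYC tumors Clec4f fell 23.6-fold (log2 fold change -4.56, standard error 1.17, adjusted p = 0.00188). Both comparisons use the same 5 livers. In order of mean level, livers stood first with 166 ± 21.5 CPM (SD, n = 5), before FGF19+MYC (22.5 ± 15.8, SD, n = 5), Aldafermin+MYC (8.06 ± 15.8, SD, n = 5) and sgTrp53+MYC tumors (7.06 ± 5.73, SD, n = 5). Of these neighbors only livers and FGF19+MYC tumors were told apart (adjusted p = 0.0238, against 0.87 and 0.928 in edgeR's test for the next pairs).

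Vsig4 stood at 42.2, 35.5, 43.8, 46.3 and 48.0 CPM in livers. The FGF19+MYC tumors had 6.08, 3.06, 13.2, 9.60 and 15.1 CPM, and the sgTrp53+MYC tumors 8.05, 1.11, 3.70, 3.73 and 0.184. In the Aldafermin+MYC tumors the values were 0.340, 0.0248, 1.36, 7.0 and 0.898 CPM. Replicate 4 was again the highest of this group, and replicate 2, with a count of 1, the lowest of all libraries. The fall against livers was 10.3-fold in the pooled Aldafermin+MYC and FGF19+MYC tumors (-3.36 ± 0.70 SE on the log2 scale, adjusted p = 0.000241) and 12.9-fold in sgTrp53+MYC tumors (-3.69 ± 0.91 SE on the log2 scale, adjusted p = 0.00132). Without Aldafermin+MYC replicate 4 the former log2 value was -4.12, and without sgTrp53+MYC replicate 1 the latter was -4.30. Vsig4 in the FGF19+MYC tumors alone was 4.58-fold lower than in livers (adjusted p = 0.0282), and its levels in the 3 tumor types were not told apart (adjusted p = 0.502 for Aldafermin+MYC against FGF19+MYC, 0.536 and 0.243 for these 2 against sgTrp53+MYC).

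Timd4 was the scarcest of the Kupffer cell markers, at 9.54, 7.63, 11.5, 9.90 and 12 CPM in livers. FGF19+MYC tumors kept 1.51, 2.91, 4.22, 4.78 and 4.57 CPM. In Aldafermin+MYC tumors Timd4 was at 0.146, 0.149, 1.07, 3.58 and 0.758 CPM, and in sgTrp53+MYC tumors at 1.14, 0.196, 0.969, 0.940 and 0.0460. No tumor reached the lowest liver, and the FGF19+MYC tumors overlapped with the Aldafermin+MYC tumors but lay wholly above the sgTrp53+MYC tumors. Timd4 fell 5.03-fold in the pooled tumors (-2.33 ± 0.59 SE on the log2 scale, adjusted p = 0.00158) and 15.3-fold in sgTrp53+MYC tumors (-3.94 ± 0.80 SE on the log2 scale, adjusted p = 0.00021). In FGF19+MYC tumors alone the log2 fold change was -1.49 and did not pass the threshold (adjusted p = 0.0735). The sums of the 6 sinusoidal markers, which moved in the same direction as these 3 genes, were 37.8 to 149 CPM in tumors and 215 to 370 CPM in livers, and their part in the result was not tested.

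These 3 genes also varied together within groups. After each group's mean was subtracted from the log2 CPM, Pearson's r over the 20 libraries was 0.95 between Clec4f and Vsig4, 0.89 between Clec4f and Timd4, and 0.92 between Timd4 and Vsig4. With Marco the 3 had r of 0.62 to 0.69, and with Cd5l of 0.31 to 0.47. The values describe libraries that share depth and tissue composition, and replicate 4 of the Aldafermin+MYC tumors is far from its group for all 3 genes. Among all 14333 genes, Vsig4 was the most like Clec4f by this measure, followed by Oit3 (r = 0.92), Mug2 (0.92), St3gal5 (0.90) and Gdf2 (0.89). Oit3 is a marker of sinusoidal endothelial cells, and Gdf2 encodes BMP9, a ligand made by stellate cells.

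Because Clec4f, Vsig4 and Timd4 moved together, the 250 bases before their start sites are shown, from the RefSeq promoters of GRCm38.p6. Capitals mark GGAAGT, the core recognized by PU.1 (encoded by Spi1, the macrophage master regulator) and by other ETS factors. Clec4f lies at chr6:83656117-83656366 on the minus strand, Timd4 at chr11:46810549-46810798 on the plus strand and Vsig4 at chrX:96293439-96293688 on the minus strand.
Clec4f: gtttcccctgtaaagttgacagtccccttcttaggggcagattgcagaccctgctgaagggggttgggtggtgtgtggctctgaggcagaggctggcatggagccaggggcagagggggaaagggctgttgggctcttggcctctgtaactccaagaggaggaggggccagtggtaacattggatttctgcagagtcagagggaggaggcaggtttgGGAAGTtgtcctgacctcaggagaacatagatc
Timd4: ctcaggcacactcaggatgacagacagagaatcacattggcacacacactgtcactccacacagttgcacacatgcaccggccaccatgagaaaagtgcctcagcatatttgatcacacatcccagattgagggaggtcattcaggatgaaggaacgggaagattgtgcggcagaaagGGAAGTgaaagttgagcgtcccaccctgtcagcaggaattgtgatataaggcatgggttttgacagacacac
Vsig4: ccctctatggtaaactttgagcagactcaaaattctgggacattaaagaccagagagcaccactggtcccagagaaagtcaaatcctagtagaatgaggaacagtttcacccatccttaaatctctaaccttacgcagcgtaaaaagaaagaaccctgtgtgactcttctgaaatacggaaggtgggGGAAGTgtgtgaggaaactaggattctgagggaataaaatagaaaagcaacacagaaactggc
GGAAGT, searched on both strands, began 33 bases before the start site in Clec4f, 72 bases before it in Timd4 and 63 bases before it in Vsig4, in each case on the strand of the gene. Of 32851 mouse promoters of this length, 19.7% held it. Promoters were found for 8 of the 10 members, and 4 members held the motif, the other being Spp1 (111 bases before the start site of 1 of its 2 promoters). The partial MAF site TGCTGA, in 16.1% of all promoters, was present in Clec4f, Timd4 and Cd5l, and the E-box CACGTG, a MYC binding motif found in 6.02%, was in 0 of the 9 member promoters. No matches overlapped each other, and a match describes the sequence only.

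**Figure D1:**
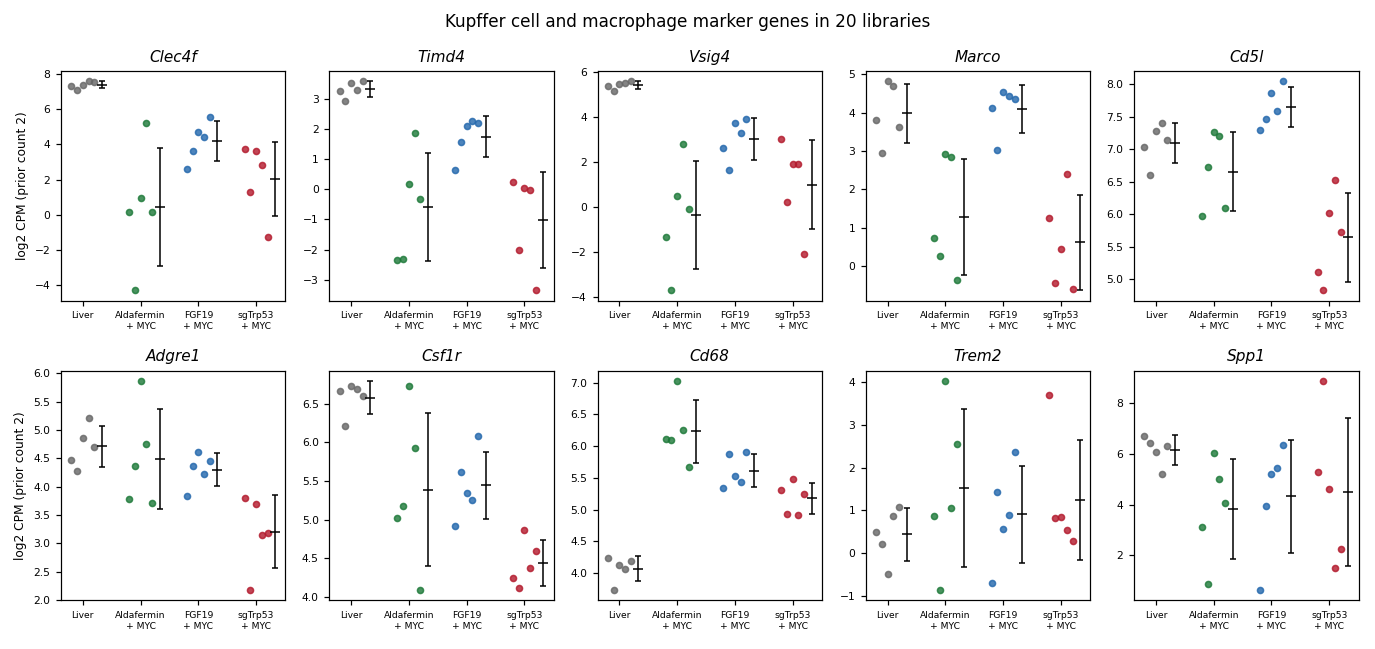
The log2 CPM (prior count 2) of each of the 10 genes is plotted for all 20 libraries, with points for libraries, and a bar and whiskers for the mean and SD of each group (n = 5). Clec4f, Timd4 and Vsig4 lie below the livers in all 15 tumors, and Cd68 lies above them in all 15.

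Marco and Cd5l, the other Kupffer cell markers, did not follow the same course. Neither was told apart from livers in FGF19+MYC tumors, and both had their lowest mean in sgTrp53+MYC tumors. Marco encodes a scavenger receptor for bacteria and particles, and Cd5l a secreted protein (also called AIM) that supports macrophage survival and binds lipids and apoptotic debris.

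Livers had 14.0, 7.74, 28.2, 25.9 and 12.4 CPM of Marco, and FGF19+MYC tumors 17.3, 8.12, 23.4, 21.6 and 20.5. In Aldafermin+MYC tumors Marco was at 1.60, 1.14, 7.52, 7.11 and 0.730 CPM, all below the lowest FGF19+MYC tumor and the lowest liver. The sgTrp53+MYC tumors had 2.36, 0.686, 1.31, 5.26 and 0.614 CPM. The groups thus fell into a high pair, livers and FGF19+MYC tumors, and a low pair without overlap between them.

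Marco fell 8.60-fold in sgTrp53+MYC tumors against livers (log2 fold change -3.10, standard error 0.69, adjusted p = 0.000498). Without sgTrp53+MYC replicate 4 the log2 fold change was -3.83. In the pooled Aldafermin+MYC and FGF19+MYC tumors its log2 fold change of -1.12 (standard error 0.53) missed the threshold (adjusted p = 0.0646), and it passed when Aldafermin+MYC replicate 3, Aldafermin+MYC replicate 4 or liver replicate 2 was left out (adjusted p of 0.0282, 0.0334 and 0.0443 in edgeR's test). It also passed with DESeq2 (adjusted p = 0.0357), with the likelihood ratio test (adjusted p = 0.044) and with only the compared groups in the model (adjusted p = 0.0338). The pooled value averages unlike groups: the log2 fold change of Marco against livers was -2.29 (adjusted p = 0.00487) in Aldafermin+MYC and 0.05 (adjusted p = 0.952) in FGF19+MYC tumors. Between sgTrp53+MYC and Aldafermin+MYC tumors Marco was not told apart (adjusted p = 0.412).

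Livers had 130, 96.7, 155, 169 and 140 CPM of Cd5l. In FGF19+MYC tumors 157, 176, 232, 192 and 264 CPM were counted, against 62.9, 106, 154, 147 and 68.0 in Aldafermin+MYC tumors. All FGF19+MYC tumors stood above all Aldafermin+MYC tumors, and livers overlapped with both. The sgTrp53+MYC tumors, with 34.3, 28.3, 64.9, 91.9 and 52.9 CPM, were all below the lowest liver. Cd5l fell 2.54-fold in these tumors (-1.34 ± 0.30 SE on the log2 scale, adjusted p = 0.000597), a call that was lost with scaling by library totals (log2 fold change -0.44, adjusted p = 0.224). In the pooled Aldafermin+MYC and FGF19+MYC tumors the log2 fold change was 0.10 (95% interval -0.44 to 0.64, adjusted p = 0.734), and by library totals it was 0.96 and called higher (adjusted p = 0.00615).

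The general macrophage markers each behaved differently. Cd68 rose in every tumor type, Csf1r fell in every tumor type, and Adgre1 was lower only in the sgTrp53+MYC tumors among the comparisons with livers. Adgre1 encodes F4/80, the surface receptor by which mouse macrophages are commonly recognized, Csf1r the receptor for the growth factors CSF1 and IL-34 on which macrophages depend, and Cd68 a glycoprotein of lysosomes.

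Adgre1 stood at 22.2, 19.4, 29.0, 37.1 and 26.1 CPM in livers, at 13.7, 20.6, 58.1, 27.0 and 13 CPM in Aldafermin+MYC tumors, and at 14.3, 20.5, 24.3, 18.5 and 21.9 CPM in FGF19+MYC tumors. These 3 groups overlapped, and replicate 3 of the Aldafermin+MYC tumors had the highest value of all libraries. In sgTrp53+MYC tumors 14.0, 4.48, 13, 8.86 and 9.09 CPM were below every liver. The log2 fold change of Adgre1 was -0.22 (95% interval -0.86 to 0.42, adjusted p = 0.525) in the pooled Aldafermin+MYC and FGF19+MYC tumors, and turned to 0.65 (adjusted p = 0.0837) with library totals. In sgTrp53+MYC tumors Adgre1 fell 2.71-fold on the TMM scale (log2 fold change -1.44, standard error 0.36, adjusted p = 0.00158) but was not called with library totals (log2 fold change -0.56, adjusted p = 0.185).

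Csf1r was measured at 102, 73.8, 106, 103 and 96.5 CPM in livers. Aldafermin+MYC tumors had 32.4, 36.1, 106, 60.6 and 16.9 CPM, FGF19+MYC tumors 30.1, 49.0, 40.5, 38.1 and 67.5, and sgTrp53+MYC tumors 19, 17.2, 29.1, 20.7 and 24.1. Of the 15 tumors 1, Aldafermin+MYC replicate 3, lay within the range of livers. Csf1r fell 2.02-fold in the pooled tumors (-1.02 ± 0.28 SE on the log2 scale, adjusted p = 0.00321), where the call depended on the TMM scale (log2 fold change -0.15, adjusted p = 0.677 with library totals), and 4.37-fold in sgTrp53+MYC tumors (-2.13 ± 0.35 SE on the log2 scale, adjusted p = 2.28e-05). The exons of Csf1r overlap those of Hmgxb3 on the other strand, and whether reads were counted by strand is not given in the sources used here. The larger share of ambiguous reads in the sgTrp53+MYC libraries adds to this uncertainty, and its part in the Csf1r values was not tested.

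Cd68 had 18.9, 13.3, 17.5, 16.7 and 18.2 CPM in livers. All tumors were higher, with 69.0, 68.5, 130, 76.2 and 51.1 CPM in Aldafermin+MYC, 40.6, 58.5, 46.0, 43.1 and 59.8 in FGF19+MYC, and 39.6, 30.6, 44.7, 30.3 and 37.9 in sgTrp53+MYC tumors. The lowest tumor was therefore above the highest liver. Cd68 rose 3.70-fold in the pooled tumors (1.89 ± 0.19 SE on the log2 scale, adjusted p = 3.57e-08) and 2.17-fold in sgTrp53+MYC tumors (1.11 ± 0.20 SE on the log2 scale, adjusted p = 7.63e-05). In order of level the tumor types stood as Aldafermin+MYC (79.1 ± 30.2 CPM, SD, n = 5), FGF19+MYC (49.6 ± 8.92) and sgTrp53+MYC (36.6 ± 6.15), and no neighbors among them were told apart (adjusted p of 0.347 and 0.145).

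Trem2, a lipid-sensing receptor of macrophages, was scarce and uneven. Livers had 1.36, 1.10, 0.663, 1.78 and 2.07 CPM, and FGF19+MYC tumors 0.558, 2.62, 1.44, 1.79 and 5.13. In Aldafermin+MYC tumors 1.77, 0.496, 16.3, 2.04 and 5.78 CPM of Trem2 were counted, and in sgTrp53+MYC tumors 13, 1.71, 1.75, 1.40 and 1.17. The values above 10 CPM came from 1 tumor in each of the latter groups, and the range of the remaining tumors overlapped with that of livers. Neither the log2 fold change of 1.33 in the pooled tumors (95% interval -0.25 to 2.91, adjusted p = 0.12) nor that of 1.45 in sgTrp53+MYC tumors (95% interval -0.29 to 3.19, adjusted p = 0.127) passed the test, and the latter was 0.12 without replicate 1. With library totals both were called higher (log2 fold changes of 2.21 and 2.24, adjusted p = 0.0141 and 0.021 in edgeR's test). In Aldafermin+MYC tumors alone Trem2 rose 3.79-fold over livers (adjusted p = 0.0485).

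Spp1 encodes osteopontin, a secreted phosphoprotein that tumor macrophages, bile duct cells and activated stellate cells are all known to make. Livers had 105, 85.9, 67.1, 36.7 and 79.4 CPM of Spp1. In Aldafermin+MYC tumors 8.74, 1.76, 66.1, 32.2 and 16.6 CPM were found, and in FGF19+MYC tumors 1.51, 15.3, 37.0, 43.9 and 81.6. The sgTrp53+MYC tumors had 38.6, 466, 24.4, 2.80 and 4.68 CPM, with replicate 2 far above every other library. Of the 15 tumors, 9 were below the lowest liver. The differences from livers did not pass the test, with log2 fold changes of -1.32 (95% interval -3.23 to 0.59, adjusted p = 0.198) in the pooled Aldafermin+MYC and FGF19+MYC tumors and 0.52 (95% interval -1.76 to 2.80, adjusted p = 0.685) in sgTrp53+MYC tumors. Without sgTrp53+MYC replicate 2 the latter was -2.09 (adjusted p = 0.062).

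Spp1 varied within groups more like Epcam than like any of the other 9 members. The gene most like it within groups was Epcam, an adhesion molecule of bile duct cells (r = 0.94 over 20 libraries, groups centered), followed by Ano1 (0.93), Far1 (0.92), Rtn4 (0.91) and Tax1bp3 (0.91). Its r with the other 9 members was -0.17 to 0.57. Replicate 2 of the sgTrp53+MYC tumors is far from its group for Spp1 and Epcam, and its weight in these r was not tested. In sgTrp53+MYC replicate 2, Epcam was at 22.2 CPM and the bile duct keratin Krt19 at 191 CPM, against 0.138 to 0.715 and 0.0953 to 2.33 CPM in the other 4 sgTrp53+MYC tumors. Summed over 6 markers, the cholangiocyte and progenitor genes of this library reached 813% of their mean in livers and Spp1 reached 623%, whereas Adgre1 stood at 16.7% and Cd68 at 181%. In livers Krt19 was at 0.956 to 2.87 CPM. The part of biliary cells in the Spp1 values was not tested.

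**Figure D2:**
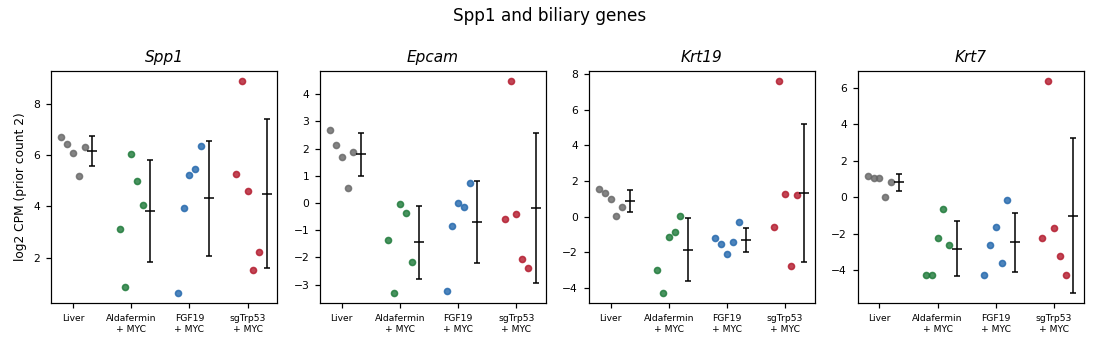
The log2 CPM (prior count 2) of Spp1 and of the biliary genes Epcam, Krt19 and Krt7 is shown for each library, with the mean and SD of each group beside the points (n = 5). The same sgTrp53+MYC tumor, at 466 CPM of Spp1 and 191 CPM of Krt19, is the highest library in all 4 panels.

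Counted over the members, the comparison of the pooled Aldafermin+MYC and FGF19+MYC tumors with livers called 4 of 10 genes lower (Clec4f, Timd4, Vsig4 and Csf1r, where 34.5% of all genes tested were lower) and 1 higher (Cd68, where 39.2% of all genes were higher). The median log2 fold change was -1.07 over the 10 members and 0.10 over all genes tested. The ranges of CPM did not overlap with livers for 3 members that were lower, beside 25.7% of all genes, and for 1 that was higher, beside 28.5%. The members' shares, 40% lower and 10% higher, are thus near or under the background. Among these calls, that of Csf1r was lost with scaling by library totals.

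Against livers, the Aldafermin+MYC tumors alone had 5 members called lower (the same 4 and Marco, background 31.9%) and 2 called higher (Cd68 and Trem2, background 38.4%). For the FGF19+MYC tumors alone 3 were called lower (Clec4f, Vsig4 and Csf1r, background 32.9%) and 1 higher (Cd68, background 36.9%). The estimated losses in the 2 groups, which were not told apart from each other in the direct comparison, were 20.9-fold and 7.38-fold for Clec4f, 23.0-fold and 4.58-fold for Vsig4, and 9.03-fold and 2.80-fold for Timd4, which was not called in FGF19+MYC tumors. Csf1r fell by similar amounts, 1.91-fold and 2.14-fold, and Cd68 rose 4.67-fold and 2.93-fold.

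In sgTrp53+MYC tumors 7 of 10 members were called lower than in livers, including all 5 Kupffer cell markers, Adgre1 and Csf1r, where 33% of all genes tested were lower. Of these, Cd5l and Adgre1 lost their calls with scaling by library totals. Cd68 was the 1 member called higher, where 36.9% of all genes were higher. The same 7 members lay wholly below the range of livers (27.4% of all genes) and Cd68 wholly above it (28.8%). The median log2 fold change of the members was -1.78, and that of all genes 0.07.

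**Figure D3:**
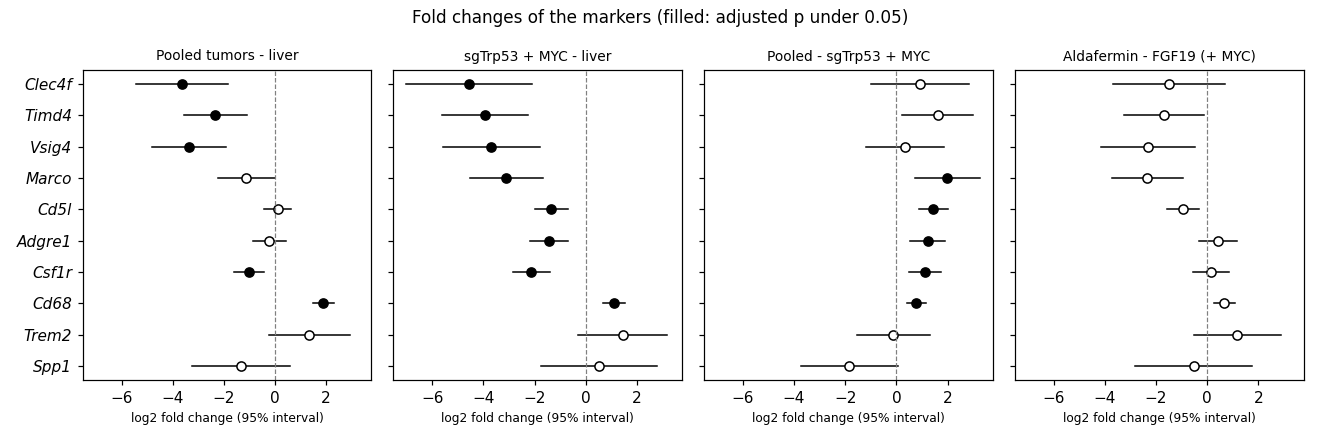
Log2 fold changes with 95% intervals are shown for the 10 genes in 4 comparisons, each between groups of 5 libraries or, for pooled tumors, 10 (edgeR's quasi-likelihood test). Filled points had an adjusted p under 0.05: 5 in the first panel, 8 in the second, 5 in the third and 0 in the fourth.

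To compare markers with each other independently of the scaling of libraries, the counts of each member were divided by those of Adgre1 in the same library (prior count 2). In livers the log2 ratio of Clec4f to Adgre1 was 2.35 to 2.82. FGF19+MYC tumors ranged from -1.24 to 1.11, sgTrp53+MYC tumors from -4.44 to -0.08 and Aldafermin+MYC tumors from -8.64 to 0.43. Clec4f was thus lower relative to Adgre1 in every tumor, and so were Vsig4 and Timd4. Of the 9 ratios, these 3 did not overlap with livers and were lower in the pooled tumors, beside 12.7% of all genes, and in sgTrp53+MYC tumors, beside 5.79%.

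The ratio of Cd68 to Adgre1 moved in the other direction. It was -1.15 to -0.23 on the log2 scale in livers, and 1.17 to 2.33, 0.92 to 1.51 and 1.5 to 2.76 in Aldafermin+MYC, FGF19+MYC and sgTrp53+MYC tumors. Cd68 was the 1 ratio wholly above livers in the pooled tumors (14.9% of all genes), and Cd68 and Trem2 were wholly above them in sgTrp53+MYC tumors (49.1% of all genes, so that this direction was common). For Csf1r, the ratio was 1.48 to 2.19 in livers and overlapped with each comparison's tumors.

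**Figure D4:**
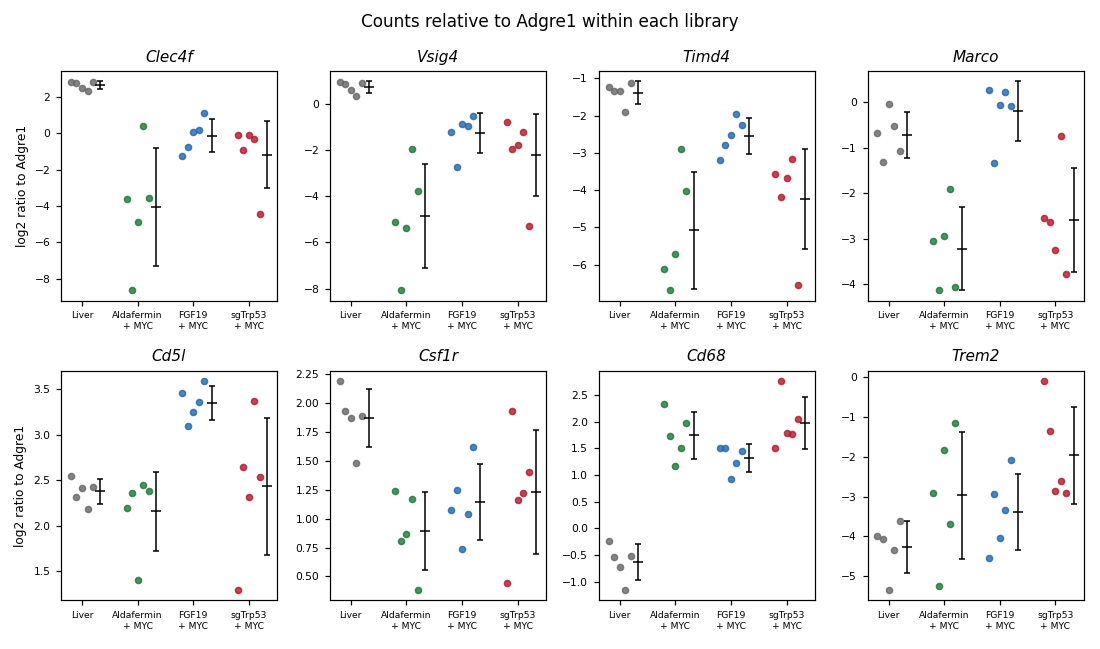
The log2 ratio of the counts of 8 members to those of Adgre1 in the same library is plotted, with the mean and SD of each group beside the points (n = 5). For Clec4f, Vsig4 and Timd4 no tumor reaches the livers, for Cd68 all tumors lie above the highest liver at -0.23, and for Marco and Cd5l the Aldafermin+MYC tumors lie below the FGF19+MYC tumors.

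Aldafermin+MYC and FGF19+MYC tumors, the comparison between the analog and the natural hormone, were not told apart for any member. Marco and Cd5l were lower and without overlap in Aldafermin+MYC tumors, as described above, and 0.391% of all genes were lower without overlap in this comparison. No member and no gene of the 14333 was called by edgeR's quasi-likelihood test (0% of genes). An unadjusted p under 0.05 was found for 5 members, where 7.31% of all genes (1048) had one. The 5 were Marco (log2 fold change -2.33, 95% interval -3.73 to -0.94, adjusted p = 0.31), Vsig4 (-2.33, -4.17 to -0.49, adjusted p = 0.502), Timd4 (-1.69, -3.23 to -0.14, adjusted p = 0.631), Cd5l (-0.92, -1.55 to -0.30, adjusted p = 0.393) and Cd68 (0.67, 0.25 to 1.09, adjusted p = 0.347).

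DESeq2 called 96 genes in this comparison, Marco among them (adjusted p = 0.0288), and edgeR's likelihood ratio test called 59 and none of the members. Relative to Adgre1, Marco and Cd5l again did not overlap and were lower in Aldafermin+MYC tumors (0.502% of all genes). The log2 ratio of Marco to Adgre1 was -4.11 to -1.91 in these tumors and -1.33 to 0.28 in FGF19+MYC tumors, and that of Cd5l was 1.40 to 2.45 and 3.10 to 3.59. Replicate 4 weighed on the other Kupffer cell markers: without it the log2 fold change of Clec4f went from -1.5 to -4.49 (adjusted p = 0.0544), that of Vsig4 from -2.33 to -3.85 (adjusted p = 0.0716) and that of Timd4 from -1.69 to -2.77 (adjusted p = 0.114), while 29 genes were called in all. In that tumor hepatocyte markers stood at 9.24% and sinusoidal markers at 41.1% of their means in livers, against 2.78% to 5.20% and 12.9% to 34% in the other 4 Aldafermin+MYC tumors. The FGF19+MYC tumors ranged from 2.43% to 11.6% and from 19.7% to 48.9%. Whether these cells account for the Kupffer cell transcripts of Aldafermin+MYC replicate 4 was not tested.

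Relative to sgTrp53+MYC tumors, the pooled Aldafermin+MYC and FGF19+MYC tumors had 5 members called higher, where 11.6% of all genes tested were higher, and 0 lower, where 12.1% of all genes were lower. The 5 were Marco (3.96-fold, log2 fold change 1.98, standard error 0.61, adjusted p = 0.0233), Cd5l (2.72-fold, adjusted p = 0.00108), Adgre1 (2.33-fold, adjusted p = 0.011), Csf1r (2.16-fold, adjusted p = 0.0132) and Cd68 (1.71-fold, adjusted p = 0.00454), all by edgeR's quasi-likelihood test. The 3 general macrophage markers and 2 of the 5 Kupffer cell markers were thus called in the pooled tumors. In Aldafermin+MYC tumors alone, all 3 general markers and 1 Kupffer cell marker (Cd5l) were called higher than in sgTrp53+MYC tumors. Over all genes, 10.2% were called higher in that comparison, and 7.97% in that of FGF19+MYC with sgTrp53+MYC tumors. In FGF19+MYC tumors alone, 1 general marker (Csf1r) and 3 Kupffer cell markers (Marco, Timd4 and Cd5l) were called, while Adgre1 (adjusted p = 0.0607) and Cd68 (adjusted p = 0.145) were not.

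Clec4f, Timd4 and Vsig4 were not called in this comparison, with log2 fold changes of 0.92 (95% interval -1.0 to 2.85), 1.61 (0.20 to 3.01) and 0.33 (-1.20 to 1.85). Timd4 was called higher by DESeq2 (1.57, adjusted p = 0.0393) and in FGF19+MYC tumors alone (2.45, adjusted p = 0.0325 in edgeR's test). Spp1 had a log2 fold change of -1.84 (-3.74 to 0.06) and Trem2 of -0.12 (-1.56 to 1.31). The call of Marco was lost without sgTrp53+MYC replicate 2, 3 or 5 (adjusted p of 0.0571, 0.0588 and 0.0627), its log2 fold change was 2.7 without replicate 4, and Aldafermin+MYC tumors alone were not told apart from sgTrp53+MYC tumors in this gene (log2 fold change 0.82). Marco is also among the genes that the study selected on these libraries for its clustering and its phagocytosis and extracellular matrix gene sets, so its direction here is not independent evidence. Since the sgTrp53+MYC libraries form their own table, tumor type and table remain confounded in these differences.

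Levels of different genes were compared as RPKM (CPM divided by the exon length in kilobases), with exon lengths from GENCODE M39 (GRCm39), although counting used RefSeq. In livers the order was Cd5l (67.7), Clec4f (45.0), Vsig4 (29.1), Spp1 (26.3), Csf1r (13.1), Cd68 (12.4), Marco (9.16), Adgre1 (7.60), Timd4 (2.55) and Trem2 (0.282). Cd68 thus stood sixth among the 10 in livers, but first in Aldafermin+MYC tumors (57.7 RPKM) and second in FGF19+MYC (36.2) and sgTrp53+MYC tumors (26.8). Clec4f, the runner-up in livers, was at 2.18, 6.09 and 1.91 RPKM in Aldafermin+MYC, FGF19+MYC and sgTrp53+MYC tumors. Cd5l remained in the first 3 places in all tumor types, at 52.7, 99.9 and 26.7 RPKM. Part of the exons of Trem2 and Spp1 overlaps unnamed transcripts (Gm65654 on the other strand of Trem2, Gm42793 on the same strand as Spp1), so their counts are uncertain.

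Most other genes of Kupffer cells moved like Clec4f, Timd4 and Vsig4. Of 12 further genes linked to these cells, 10 were called lower and 2 higher in the pooled Aldafermin+MYC and FGF19+MYC tumors than in livers (median log2 fold change -1.89, against 0.10 over all genes). In sgTrp53+MYC tumors 10 were lower and 1 higher (median -2.78, against 0.07). The shares over all genes were 34.5% lower and 39.2% higher in the former comparison, and 33% and 36.9% in the latter. In FGF19+MYC tumors alone 8 of the 12 were lower than in livers, 2 higher and 2 not called. Over all genes, 32.9% were lower and 36.9% higher there. Several of the 12 genes are also expressed by hepatocytes, among them Slc40a1, Nr1h3, Hmox1 and C6. Slc40a1, the iron exporter ferroportin, fell by 1.21 on the log2 scale in the pooled tumors (adjusted p = 6.75e-09) and by 1.67 in sgTrp53+MYC tumors (adjusted p = 1.66e-09). Nr1h3, the nuclear receptor LXR-alpha, fell by 1.41 and 1.59, and Hpgd, a prostaglandin-degrading enzyme, by 3.12 and 2.5.

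Fcna, a ficolin of macrophages that binds bacterial sugars, fell from 68.3 CPM in livers to 31.9 in Aldafermin+MYC, 27.2 in FGF19+MYC and 8.18 in sgTrp53+MYC tumors. It was higher in the pooled than in the sgTrp53+MYC tumors by 1.85 on the log2 scale (adjusted p = 1.51e-05), as were Hmox1 (1.08, adjusted p = 0.00598), Slc40a1 (0.46) and Clec1b (0.78), the 4 of 12 called there. Over all genes tested, 11.6% were called higher in the pooled than in the sgTrp53+MYC tumors. Cd163, a hemoglobin scavenger receptor, had 21.2 CPM in livers, 8.36 in FGF19+MYC, 1.80 in Aldafermin+MYC and 1.71 in sgTrp53+MYC tumors. Unlike those of Marco, its levels in FGF19+MYC tumors (4.97 to 12.2 CPM) lay wholly below livers (13.4 to 26.7 CPM), and Aldafermin+MYC and FGF19+MYC tumors were not told apart (log2 fold change -2.24, adjusted p = 0.365). The exceptions were Hmox1, the heme-degrading enzyme, higher by 0.98 in the pooled tumors (adjusted p = 0.00228), and Spic, a transcription factor of iron-recycling macrophages, higher by 2.14 (adjusted p = 2.41e-06) and, in sgTrp53+MYC tumors, by 1.64 (adjusted p = 0.000136). Spic and Clec1b were named after their values were seen.

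Most other general macrophage genes were not called against livers on the TMM scale. Of 22, the pooled tumors had 2 called higher and 4 lower (median log2 fold change 0.33), beside 39.2% and 34.5% of all genes tested. The sgTrp53+MYC tumors had 0 higher and 6 lower (median -0.28), beside 36.9% and 33%. Against livers, Aldafermin+MYC tumors alone had 7 higher and 3 lower, and FGF19+MYC tumors alone 0 higher and 4 lower. Over all genes these shares were 38.4% and 31.9% for the former, and 36.9% and 32.9% for the latter. With library totals the counts became 18 higher and 1 lower in the pooled tumors, and 8 and 2 in sgTrp53+MYC tumors. No direction is therefore given for the list against livers. Maf, a transcription factor of macrophages that is also found in other liver cells, fell from 35.9 CPM in livers to 13.2, 10.9 and 7.51 CPM in Aldafermin+MYC, FGF19+MYC and sgTrp53+MYC tumors (log2 fold change -1.58, adjusted p = 6.93e-05).

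Against sgTrp53+MYC tumors, 7 of the 22 genes were higher in the pooled tumors and 0 lower (median 0.60, against -0.02 over all genes). The count was 8 for Aldafermin+MYC tumors alone, 0 for FGF19+MYC tumors alone, and 4 without sgTrp53+MYC replicate 4 or replicate 5. Over all genes, the shares called higher were 11.6% in the pooled tumors, 10.2% in Aldafermin+MYC and 7.97% in FGF19+MYC tumors alone. C1qb and C1qc, subunits of the complement component C1q, had the smallest adjusted p, with log2 fold changes of 1.01 (adjusted p = 0.00406) and 0.95 (adjusted p = 0.00673). Lyz2, lysozyme and the most abundant of the list, was at 111 CPM in livers, 222 in Aldafermin+MYC, 103 in FGF19+MYC and 115 in sgTrp53+MYC tumors and was not called in any of the 4 comparisons. None of the 22 was called between Aldafermin+MYC and FGF19+MYC tumors, where the smallest adjusted p were 0.414 for Fcer1g and 0.465 for Itgam. Adgre1 was most like other genes of this kind within groups, with r of 0.89 for Arhgdib, 0.88 for Sirpa, 0.88 for Mpeg1, 0.87 for Btk and 0.87 for Slc37a2, which are mainly expressed in blood and macrophage lineages.

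Genes of lipid-associated macrophages, the program to which Trem2 belongs, went both ways. Of 12, the pooled tumors had 7 called higher and 4 lower than livers (median log2 fold change 1.27) and the sgTrp53+MYC tumors 5 and 4 (median 0.45). With library totals 2 were lower in either comparison, and in Aldafermin+MYC tumors alone 2 were lower. The background over all genes was 39.2% higher and 34.5% lower in the first comparison, and 36.9% and 33% in the second. Cd63, a tetraspanin of lysosomes, rose from 5.57 CPM in livers to 137 in Aldafermin+MYC, 89.2 in FGF19+MYC and 89.9 in sgTrp53+MYC tumors (log2 fold change 4.31 for pooled tumors, adjusted p = 1.77e-09). The 4 called lower in the pooled tumors were Apoe, Plin2, Ctsb (log2 fold change -0.28) and Atp6v0d2, a proton pump subunit named after its values were seen (log2 fold change -1.46, adjusted p = 0.00294). Apoe and Plin2 are also strongly expressed by hepatocytes. Which cells account for the rises or the falls in this list was not tested. Apoe, the apolipoprotein, went from 30889 CPM to 3651, 4274 and 2976, and Plin2, a lipid droplet coat protein, from 1185 CPM to 233, 169 and 93.2. Gpnmb, a glycoprotein often seen with Trem2 and named here after its values were seen, was at 0.435 CPM in livers and at 37.0, 18.4 and 24.7 CPM in the tumor groups (log2 fold change 5.89 for pooled tumors, adjusted p = 2.01e-06). It stayed under 1 CPM in livers and so passed the filter only through tumors, which set its direction beforehand.

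The cathepsins Ctsb and Ctsd were the list's genes with the smallest adjusted p between the pooled and the sgTrp53+MYC tumors, higher in the former by 0.67 (adjusted p = 0.000773) and 0.76 (adjusted p = 0.00229) on the log2 scale. Trem2 itself was most like Cracr2b (r = 0.86), Dcn (0.84), Dusp22 (0.84), Ctsk (0.84) and Mustn1 (0.84). Dcn, decorin, is a matrix protein of fibroblasts and stellate cells. The summed levels of stellate and fibroblast markers (Reln, Lrat and 4 others) were 86.8 to 966 CPM in Aldafermin+MYC, 57.7 to 354 CPM in FGF19+MYC and 82.8 to 146 CPM in sgTrp53+MYC tumors, and their part in the Trem2 values was not tested.

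Monocyte genes were scarce in livers, and some were called higher in tumors. Of 8 genes, 7 were tested. The pooled tumors had 4 called higher than livers (39.2% of all genes were higher) and the sgTrp53+MYC tumors 5 (36.9%). In either comparison 0 were called lower, and the median log2 fold changes were 1.76 and 2.23. With the replicate number as a block, the 5 in sgTrp53+MYC tumors became 3. Vcan, a proteoglycan of classical monocytes and of fibroblasts, went from 0.0536 CPM in livers to 1.91, 0.872 and 1.62 in Aldafermin+MYC, FGF19+MYC and sgTrp53+MYC tumors, and Chil3, a chitinase-like protein, from 0.0736 CPM to 1.27, 1.72 and 2.64. These genes stayed under 1 CPM in livers and so passed the filter only through tumors, which set their direction beforehand. Plac8, the most abundant, was at 10.4 CPM in livers and 54.2, 29.4 and 42.3 CPM in tumors. The difference in S100a4 between pooled and sgTrp53+MYC tumors was -1.87 on the log2 scale (adjusted p = 0.0653). The summed monocyte genes were at 12.4 to 17.8 CPM in livers and 27.3 to 169 CPM in tumors, without overlap. By group means, Plac8 made up most of this sum in every group, so the sum does not describe the whole list. Of single genes tested, 28.5% lay wholly above livers in the pooled tumors and 28.8% in sgTrp53+MYC tumors. Summed T and NK cell genes (Cd3e, Cd3d and 6 others) were at 4.77 to 8.19 CPM in livers and 3.15 to 18.2 CPM in tumors. Summed neutrophil genes (S100a8, S100a9 and 4 others) were at 3.36 to 5.46 and 2.48 to 25.2 CPM.

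**Figure D5:**
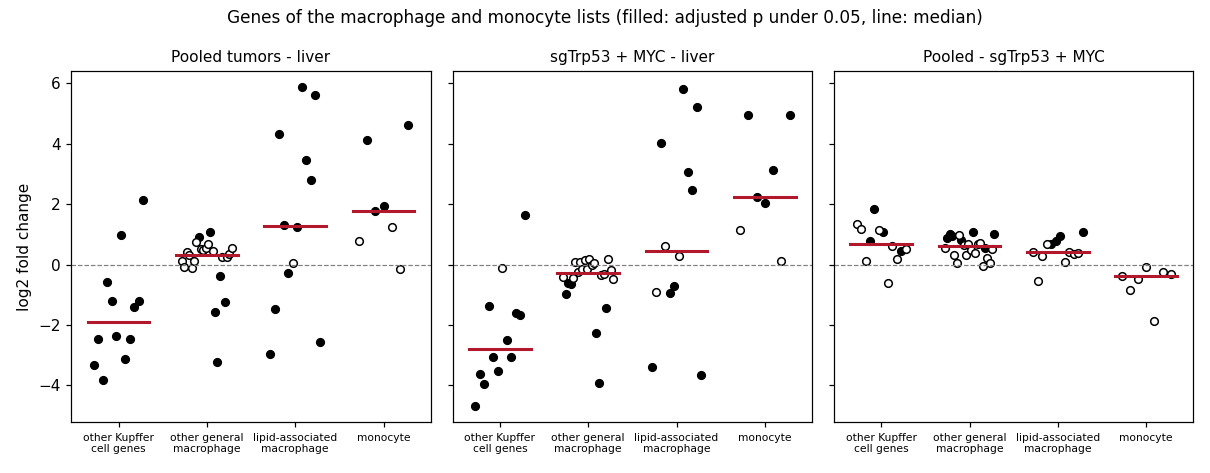
Log2 fold changes of the other Kupffer cell, general macrophage, lipid-associated macrophage and monocyte genes are shown in 3 comparisons, a point for each gene tested, filled where the adjusted p was under 0.05, with a line at the list's median. Medians against livers in the pooled tumors were -1.89, 0.33, 1.27 and 1.76 in this order, on the TMM scale.

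Signals that recruit or sustain macrophages moved in both directions, at shares near the background. In each of the 2 comparisons with livers, 28.6% of the 7 signals tested had a call upward and 42.9% a call downward. Over all genes these shares were 39.2% and 34.5% for the pooled tumors, and 36.9% and 33% for the sgTrp53+MYC tumors. Ccl2, the chemokine that draws monocytes through CCR2, rose from 0.692 CPM in livers to 7.47 in Aldafermin+MYC, 3.52 in FGF19+MYC and 3.17 in sgTrp53+MYC tumors (log2 fold change 2.90 for pooled tumors, adjusted p = 0.00127), and the related Ccl7 rose as well (3.47, adjusted p = 0.00358). With a mean under 1 CPM in livers, Ccl2 could not pass the filter without tumors, which favored a rise beforehand. The same may hold for Ccl7, whose levels are not given here. Csf1, the growth factor of macrophages, fell by 1.0 on the log2 scale in the pooled tumors (adjusted p = 0.0159) and by 1.01 in sgTrp53+MYC tumors (adjusted p = 0.0397). These falls are close in size to the median shifts of 0.85 and 0.88 with library totals, a scale on which Csf1 was not examined. Gdf2 (BMP9) fell by 3.94 and 4.76 (adjusted p = 3.11e-05 and 0.000125 in edgeR's test), from 34.9 CPM in livers to 1.57, 3.36 and 1.28 CPM in the tumors. Il34, the other ligand of CSF1R, was the third gene called lower, among 7 tested of 8, and was named after its values were seen. Tgfb1, a signal that shapes macrophage identity, was not called in either comparison with livers (log2 fold changes of 0.54 and 0.31). None of the 7 was called between pooled and sgTrp53+MYC tumors or between Aldafermin+MYC and FGF19+MYC tumors, where the largest difference was that of Ccl7 (log2 fold change 2.83, adjusted p = 0.377).

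The members lie on several chromosomes of GRCm39 and are not neighbors, except that Timd4 (11: 46701620 to 46735177, plus strand) and Cd68 (11: 69555037 to 69557067, minus strand) share a chromosome, as do Trem2 (17: 48653429 to 48661175) and Adgre1 (17: 57665573 to 57790527), both on the plus strand. Clec4f (6: 83621524 to 83633169, minus strand) lies near Cd207 (6: 83648190 to 83654839, minus strand), which encodes the related lectin langerin. Cd207 was at 7.18 CPM in livers and 0.464, 0.564 and 0.468 CPM in Aldafermin+MYC, FGF19+MYC and sgTrp53+MYC tumors, and fell by 3.82 on the log2 scale in the pooled tumors (adjusted p = 0.000142). Its mean was under 1 CPM in each tumor group, so it passed the filter mainly through livers, which favored a fall beforehand.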

How the data were processed

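Stranded mRNA libraries of 20 samples were sequenced and, per the labels and the methods, aligned with HISAT2 to the mouse genome (Mm39). The authors deposited raw read counts per gene symbol from htseq-count with the NCBI RefSeq annotation, 15 libraries in a first table and the 5 sgTrp53+MYC libraries in a second. The 5 summary lines were removed. All columns were used (0 left out). The lowest chi-square per degree of freedom between libraries of a group was 15.5, so none was a copy of another.

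Tests used edgeR 4.0.16 under R 4.3.3. A gene was retained if 5 or more libraries had 1 CPM or more (14333 of 50559), and counts were scaled by TMM and fitted in a quasi-likelihood model of the 4 groups, with Benjamini-Hochberg adjustment over all genes tested and a threshold of 0.05. The test was also run on simulated counts. Replicates are different mice. The members and gene lists were chosen with earlier results of these data known. Named genes were the 10 members, in the macrophage and monocyte lists the 2 with the highest CPM and the 2 with the smallest adjusted p per comparison, in other lists the first 2, and the 5 genes most correlated with Clec4f, Adgre1, Trem2 and Spp1, except where marked as named after their values were seen. A gene that this rule names is not reported here. Of the B cell, dendritic cell and erythroid lists, 1, 2 and 4 genes passed the filter, and pooled tumors had 1 lower, 1 higher and 2 lower than livers. Promoters were from RefSeq (GRCm38.p6), where Adgre1 and Csf1r had no entry, and coordinates from GENCODE M39. Alternatives were DESeq2 1.42.0, edgeR's likelihood ratio test, RLE factors, library totals, no filter, only the compared groups, a replicate block, and leaving out each library.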

Additional observations from a re-analysis of the deposited data

Results flagged for a closer look

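In groups of 5 libraries, 5 of 40 group and gene combinations had a value further from the rest than Dixon's 95% criterion allows, where chance gives about 2. Of these, 3 were in Aldafermin+MYC replicate 4, at 36.3 CPM of Clec4f (next highest 1.89), 3.58 CPM of Timd4 (next 1.07) and 7.0 CPM of Vsig4 (next 1.36). Trem2 was at 13 CPM in sgTrp53+MYC replicate 1 (next 1.75), and Spp1 at 466 CPM in sgTrp53+MYC replicate 2 (next 38.6).

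The change against livers differed between the pooled Aldafermin+MYC and FGF19+MYC tumors and the sgTrp53+MYC tumors for 5 members by the direct test of that difference (edgeR's quasi-likelihood test). On the log2 scale the differences were 1.98 for Marco, 1.44 for Cd5l, 1.22 for Adgre1, 1.11 for Csf1r and 0.77 for Cd68. The tables of the libraries differ in the same way as these groups, so table and tumor type cannot be told apart.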

How the results depend on the processing

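Over the alternatives, 807 of 856 values of the members kept their direction and their side of the threshold, 17 passed it only under the alternative, 11 no longer passed and 21 changed direction. Causes were not tested. Between Aldafermin+MYC and FGF19+MYC tumors the number of genes called was 0, but 96 with DESeq2, 59 with the likelihood ratio test, 2 with RLE factors and 0 to 29 with a library left out (6 without Aldafermin+MYC replicate 2 and 29 without replicate 4). With Aldafermin+MYC replicate 4 and sgTrp53+MYC replicate 2 both left out, an alternative chosen after the data were seen, it was 35, and 1 member (Clec4f, log2 fold change -4.49, adjusted p = 0.0468 in edgeR's test) was called lower, as was 1 (Marco) with DESeq2. Members called higher than in livers numbered 3 with library totals and 2 in Aldafermin+MYC tumors alone in place of 1 for the pooled tumors, and 2 with library totals for sgTrp53+MYC tumors. Pooled against sgTrp53+MYC tumors, 3399 genes were called, 2512 to 3806 with a library left out and 2258 with FGF19+MYC tumors alone. With a library left out, members called lower than in livers were 4 to 5 in the pooled and 7 in the sgTrp53+MYC tumors, and members higher in pooled than in sgTrp53+MYC tumors were 4 to 5.

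The values that changed direction were, for pooled tumors against livers, Adgre1 with library totals (0.65), Cd5l in Aldafermin+MYC tumors alone (-0.36) and without liver replicate 2 (-0.0034), and Marco in FGF19+MYC tumors alone (0.046). For sgTrp53+MYC tumors against livers, Spp1 was -0.48 with the replicate block and -2.09 without sgTrp53+MYC replicate 2, with or without Aldafermin+MYC replicate 4. For pooled against sgTrp53+MYC tumors, Trem2 was 0.0093 with the block, 0.47 in Aldafermin+MYC tumors alone, 0.03 without Aldafermin+MYC replicate 2 and 1.21 without sgTrp53+MYC replicate 1. In the same comparison Vsig4 was -0.84 in Aldafermin+MYC tumors alone, -0.44 without Aldafermin+MYC replicate 4 and -0.66 with both left out, Clec4f was -0.57 and -0.79 under the latter, and Spp1 was 0.77 without sgTrp53+MYC replicate 2 and 0.71 with both left out. Between Aldafermin+MYC and FGF19+MYC tumors, Adgre1 (-0.10) and Csf1r (-0.30) changed without Aldafermin+MYC replicate 3, and Spp1 (0.033) without FGF19+MYC replicate 5. The values furthest in the other direction with a library left out were 0.23 for Cd5l in the first comparison, 0.83 for Spp1 in the second, 1.27 for Clec4f, 0.94 for Vsig4 and -2.22 for Spp1 in the third, and 0.57 for Adgre1, 0.37 for Csf1r and -1.28 for Spp1 in the last.

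Replicate numbers belong to different mice, and libraries of the same number did not deviate together (mean r -0.02 over 30 pairs). With the number as a replicate block, the log2 fold change of Marco in pooled tumors against livers was -1.19 (adjusted p = 0.00603) and 5 members were called lower in place of 4. Depth limits Clec4f, Timd4, Vsig4, Marco, Trem2 and Spp1, which had under 30 counts in some tumors.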
